A study of Mus musculus with 12 samples.

Results

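The V1 sector is the cytosolic part of the vacuolar proton pump (V-ATPase), and 8 of its genes were followed here across 3 groups of mouse hearts: Atp6v1a, Atp6v1b2, Atp6v1c1, Atp6v1d, Atp6v1e1, Atp6v1f, Atp6v1g1 and Atp6v1h. They were taken by gene symbol from a table of 33615 symbols and stand for 35 of its 104952 transcripts. Atp6v1h led to the choice of the family: it was selected on its own CPM in these same libraries, higher after injury and lower again with ML264. Its values are therefore a description with no test, and only the other 7 genes are tested.

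Bulk RNA sequencing was done on frozen heart tissue, with 4 libraries in each group. Sham hearts came from sham-operated mice, and their titles give a time of 2 h, as do those of the other groups. I/R hearts had 30 min of ischemia and then 2 h of reperfusion. Hearts of the third group, I/R + ML264 (the ML264 group in what follows), had the same injury in mice given ML264, a compound that the study used to inhibit the transcription factor KLF5. No group of untreated hearts and no sham group with ML264 is analysed here, so the compound is seen only on top of the injury. Strain, age and sex of the mice, and the dose and timing of ML264, are not stated in the labels. Whether the libraries stem from different animals is not stated either. The p-values then reflect only how far these libraries scatter, which may in part be technical.

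The V-ATPase pumps protons into lysosomes, endosomes and secretory vesicles. V1 splits ATP and turns a central stalk, and the membrane-embedded V0 sector uses that rotation to carry protons across. V1 and V0 can come apart and rejoin, which switches the pump on and off, and in heart muscle cells the pump keeps lysosomes acidic for autophagy and sits in the machinery by which lysosomes signal nutrient supply to mTORC1. Subunits A and B form the ring that binds ATP. D and F form the rotating stalk, E and G the outer stalks that hold the ring still, and C and H join the ring to the membrane sector. The H subunit, encoded by Atp6v1h, is needed for the assembled pump to work and keeps ATP splitting silent in V1 that has come off the membrane.

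Library totals were 22.26 to 29.93 M estimated counts (M, mega). Levels are given as CPM, counts scaled to a library of 1 M with TMM factors. An estimate of 0 counts allows up to 3 counts, or 0.1002 to 0.1348 CPM. Such limits cover counting error only. The tissue label was checked against 8 cardiomyocyte genes (Myh6, Ttn and others), whose summed level was 86880 to 105200 CPM over the 12 libraries. Ddx3y, a Y-linked gene, was at 38.79 to 51.97 CPM in 8 libraries and at 0.1064 to 0.4842 CPM in the other 4 (I/R libraries 1 and 4, and ML264 libraries 1 and 2). Within I/R and within ML264, the high and the low libraries cannot stem from a single animal, but the number of animals stays unknown. Every Sham library was high, so results are also given within the libraries with high Ddx3y where that changes them. A gene is called changed at an adjusted p under 0.05 in edgeR's quasi-likelihood fit over 15952 genes. By that rule I/R and Sham differed in 1236 genes (7.75%), of which 731 were higher and 505 lower after I/R. The ML264 group differed from I/R in 8 genes (0.0502%) and from Sham in 46 (0.288%).

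Sequence just upstream is shown for Atp6v1a and Atp6v1d, because V-ATPase genes are textbook targets of TFEB, a lysosomal transcription factor that binds CACGTG, and because KLF factors bind GC-rich boxes. Promoters in RefSeq (GRCm38.p6) matched 4 of the 8 genes (Atp6v1a, Atp6v1d, Atp6v1e1 and Atp6v1f). The bases lie upstream of the RefSeq start and outside annotated exons, and they read 5′ to 3′ on the strand of the gene. In Atp6v1a they lie inside the GENCODE gene span, in an intron of longer transcripts that start further upstream. Capitals mark CACGTG in Atp6v1a and GGGCGG in Atp6v1d, and no other match.
Atp6v1a, chr16:44139306-44139461, minus strand: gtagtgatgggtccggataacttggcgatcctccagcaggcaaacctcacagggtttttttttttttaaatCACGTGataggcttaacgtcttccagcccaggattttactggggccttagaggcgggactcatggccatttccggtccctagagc
Atp6v1d, chr12:78861639-78861818, minus strand: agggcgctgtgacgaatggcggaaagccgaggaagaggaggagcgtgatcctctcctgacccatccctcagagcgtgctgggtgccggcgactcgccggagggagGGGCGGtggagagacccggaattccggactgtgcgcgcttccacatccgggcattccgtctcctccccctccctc
In Atp6v1a, CACGTG begins 131 bases before the RefSeq start, and on either strand it occurs in 6.02% of 32851 RefSeq promoters over the same 250 bases. In Atp6v1d, GGGCGG begins 75 bases before the RefSeq start and occurs in 32.7% of those promoters. The windows of Atp6v1e1 and Atp6v1f also hold GGGCGG, and CACGTG does not occur in those of Atp6v1d, Atp6v1e1 and Atp6v1f. Also searched on both strands were the CLEAR element in its palindromic form, which contains CACGTG and occurs in 0.24% of promoters and in none of these 4, and CACCC, another KLF box, which occurs in 52% and in Atp6v1d alone of the 4. A match is a run of letters and not a measured binding site.

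Atp6v1h, the H subunit gene on the plus strand of GRCm38 chromosome 1 (chr1:5070018-5162529, and all gene positions below are in the same build), was about 2-fold higher after I/R and lay between the other groups with ML264. Its level was 15.97, 15.86, 16.99 and 14.62 CPM in the 4 Sham libraries. In I/R it was 31.35, 34.24, 29.64 and 32.76 CPM. The ML264 libraries were at 20.82, 19.21, 20.33 and 21.26 CPM. No library of one group reached the range of another: the lowest I/R library lay 8.39 CPM above the highest ML264 library, and the lowest ML264 library lay 2.22 CPM above the highest Sham library. Group means were 15.9 ± 0.969 CPM in Sham, 32.0 ± 1.97 after I/R and 20.4 ± 0.883 with ML264 (SD, n = 4 each).

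On the log2 scale Atp6v1h differed by 1.01 ± 0.09 (SE) in I/R against Sham, by -0.65 ± 0.09 in ML264 against I/R and by 0.36 ± 0.09 in ML264 against Sham. The first and the second difference share the I/R libraries, so they are not independent. In CPM the I/R mean was 16.1 above Sham and the ML264 mean 4.54 above Sham, which is 28.2% of the I/R difference. Of the 15952 genes, 602 had a larger log2 difference than Atp6v1h in I/R against Sham, and 613 had a lower one in ML264 against I/R. Within the I/R group, Atp6v1h was at 29.64 to 34.24 CPM in the libraries with high Ddx3y and at 31.35 to 32.76 CPM in those with low Ddx3y. Within the ML264 group the corresponding ranges were 20.33 to 21.26 and 19.21 to 20.82 CPM. As the I/R and ML264 ranges do not overlap, any split of the libraries puts I/R above ML264, so this split is no test.

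Replicates of Atp6v1h were close together. Its SD within groups, pooled over the 3 groups, was 0.08 on the log2 scale, against a median of 0.26 over all genes. Of 1898 genes of similar level, 1.95% had a smaller value. Among the other V1 genes this SD ran from 0.12 in Atp6v1a to 0.59 in Atp6v1f. Since Atp6v1h was selected on its values in these same libraries, its rank among other genes is a description and no test.

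**Figure D1:**
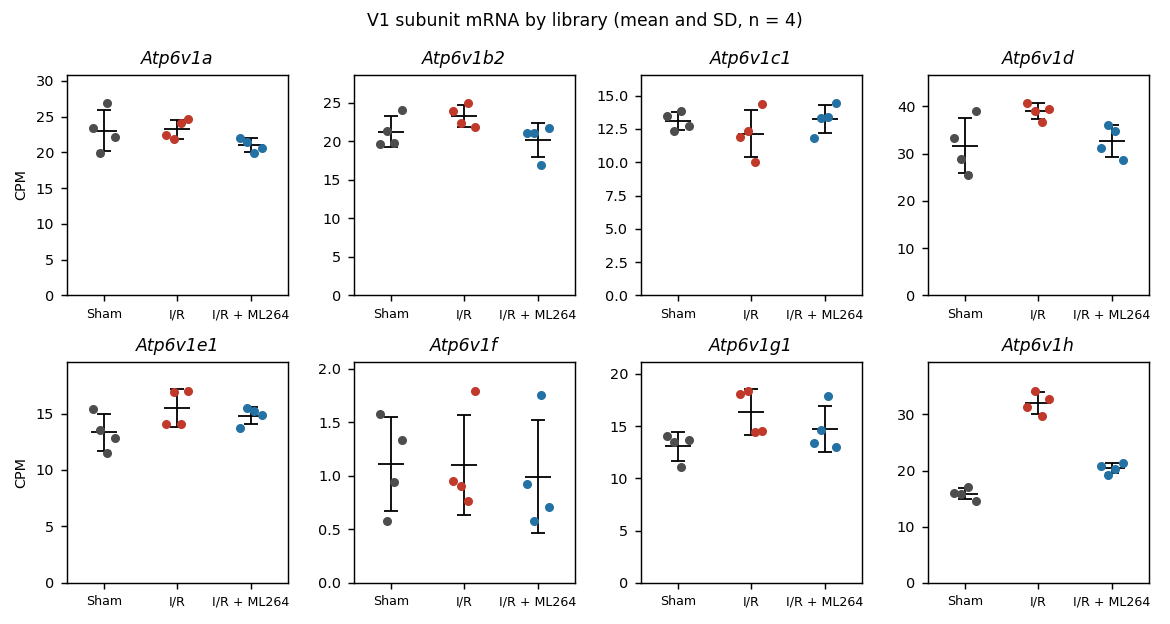
Each panel plots the level of a V1 gene in CPM (vertical axis, from 0) in the 4 libraries of each group (points), with the mean and SD (bars). The 3 groups are separate for Atp6v1h, with I/R at 29.64 to 34.24 CPM against 14.62 to 16.99 in Sham, and the groups of the other genes lie mostly over each other.

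By edgeR, none of the other 7 V1 genes was called in I/R against Sham (0 of 7, beside 7.75% of all genes), and 2 had an unadjusted p under 0.05, as did 23.2% of all genes. Their log2 differences ran from -0.11 to 0.32 with a median of 0.13, and the median of all genes was 0.00. Of the 7, 6 had a difference above 0, as did 50.29% of all genes. Among these, Atp6v1a and Atp6v1f lay near 0, at 0.0121 and 0.0035. In ML264 against I/R again 0 of 7 were called (0.0502% of all genes), and 1 had an unadjusted p under 0.05 (10.4% of all genes). The median was -0.15 and 6 differences were below 0, with 50.01% of all genes above 0. Both comparisons share the I/R libraries, so their counts of signs are not independent. In ML264 against Sham 0 of 7 were called (0.288% of all genes), none had an unadjusted p under 0.05 (13% of all genes), and the median was 0.02. DESeq2 and voom also called 0 of the 7 in each comparison.

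The catalytic ring genes gave small differences. Atp6v1a (chr16:44085402-44139705) encodes subunit A, which binds and splits ATP. Its level was 23.39, 19.88, 26.85 and 22.09 CPM in Sham, 22.45, 21.82, 24.09 and 24.63 in I/R, and 22.06, 21.5, 19.94 and 20.59 with ML264. The groups overlapped in every comparison. The log2 difference of Atp6v1a in I/R against Sham was 0.01 ± 0.10 (SE), with a 95% interval of -0.18 to 0.20 and an adjusted p of 0.96 in edgeR. A 2-fold difference like that of Atp6v1h thus lies outside the interval.

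Atp6v1b2 (chr8:69088646-69113711) encodes the B subunit that alternates with A in the ring. Its Sham libraries were at 19.72, 21.37, 19.83 and 24.03 CPM, its I/R libraries at 23.95, 22.33, 24.94 and 21.86, and its ML264 libraries at 21.14, 21.08, 16.9 and 21.7. Every ML264 library was below every I/R library, by a narrow margin, and I/R overlapped Sham. The ML264 against I/R difference was -0.20 ± 0.10 on the log2 scale (edgeR adjusted p = 0.508). A level lower in every ML264 library than in every I/R library was found for 3.08% of all genes, and for 2 of the 7 V1 genes (Atp6v1b2 and Atp6v1d).

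The rotating stalk genes differed from each other in depth. Atp6v1d (chr12:78840725-78861638), the D subunit gene, was at 33.2, 28.94, 25.5 and 38.97 CPM in Sham, at 40.61, 39.08, 36.72 and 39.46 after I/R and at 31.25, 35.99, 34.86 and 28.71 with ML264. The highest Sham library reached into the I/R range, and every ML264 library was below every I/R library. The log2 difference was 0.30 ± 0.11 in I/R against Sham (edgeR adjusted p = 0.12) and -0.25 ± 0.11 in ML264 against I/R (adjusted p = 0.446). Sham library 4 bears on the first value: without it the log2 difference was 0.42 with an adjusted p of 0.0402, which is the single call among the other 7 V1 genes when libraries were left out in turn.

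Atp6v1f (chr6:29467718-29470512), the F subunit gene, had 16 to 48 estimated counts per library. Its level was 0.579 to 1.58 CPM in Sham, 0.764 to 1.80 after I/R and 0.581 to 1.75 with ML264. These ranges lie almost on top of each other. The I/R against Sham log2 difference of 0.00 ± 0.40 had a 95% interval of -0.78 to 0.79, and differences within that interval are not excluded. Of the 31-base words of Atp6v1f, 18.4% also occur in AC169506.3.

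The outer stalks are made of E and G subunits. Atp6v1g1 (chr4:63544772-63550750) was at 14.07, 13.51, 11.05 and 13.63 CPM in Sham, at 18.05, 18.4, 14.4 and 14.53 after I/R and at 13.41, 14.66, 17.84 and 12.96 with ML264. Every I/R library was above every Sham library, though 2 of them only by a small step. This made Atp6v1g1 the only one of the 7 whose I/R libraries were all higher than its Sham libraries, against 8.54% of all genes. The log2 difference was 0.32 ± 0.13 (edgeR adjusted p = 0.141). It has a limit of its own: 24% of the 31-base words of its transcript also occur in another annotated gene, Gm13453, so reads may be divided between them.

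Atp6v1e1 (chr6:120794305-120822793) was at 15.43, 13.51, 11.53 and 12.82 CPM in Sham, at 14.06, 16.94, 14.04 and 17.03 after I/R and at 13.73, 15.5, 15.19 and 14.86 with ML264. All 3 groups overlapped. The I/R against Sham log2 difference was 0.22 ± 0.11 (edgeR adjusted p = 0.256), with a 95% interval of -0.0013 to 0.44.

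Atp6v1c1 (chr15:38661933-38692446) encodes subunit C, the other link between the ring and the membrane sector. Its Sham libraries were at 13.48, 12.31, 13.86 and 12.72 CPM, its I/R libraries at 11.9, 12.34, 10.02 and 14.34, and its ML264 libraries at 11.85, 13.33, 13.4 and 14.42. It alone of the 8 had a mean lower in I/R than in Sham and higher with ML264 than in I/R, with groups that overlapped. The log2 differences were -0.11 ± 0.12 (edgeR adjusted p = 0.643) and 0.12 ± 0.12 (adjusted p = 0.76).

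**Figure D2:**
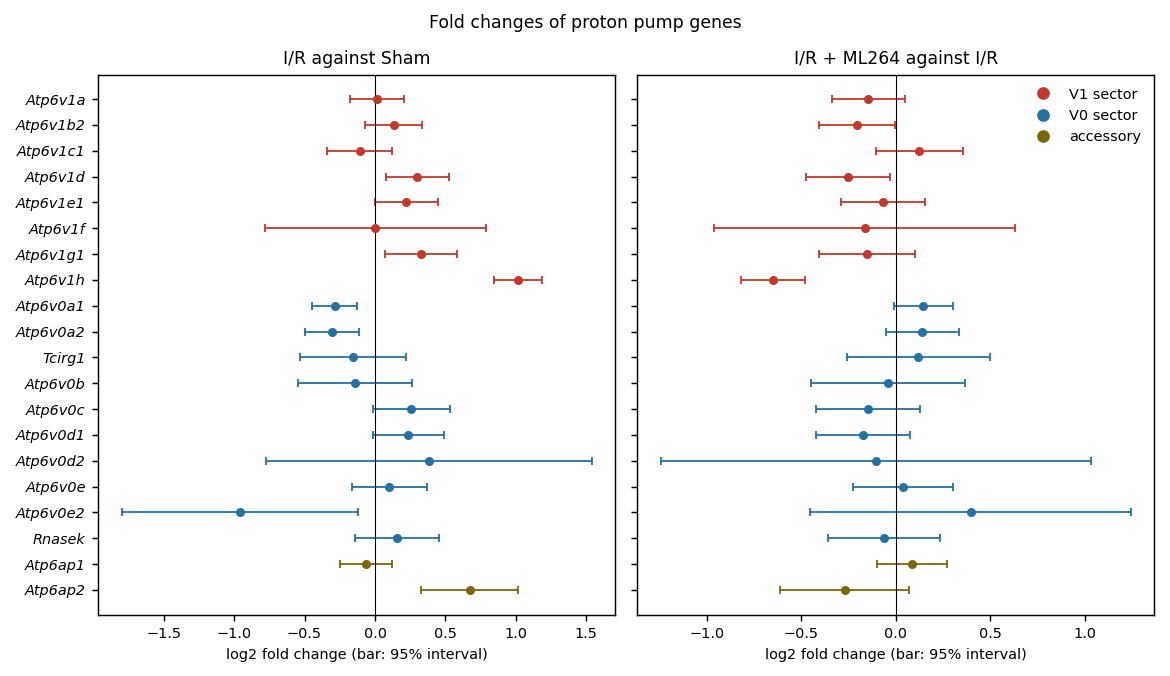
Points show the log2 fold change of V1, V0 and accessory genes (rows) in I/R against Sham (left) and I/R + ML264 against I/R (right), and bars show the 95% interval. Atp6v0a4, with at most 14 counts per library, is not drawn. Atp6v1h lies at 1.01 and -0.65, and the other V1 genes lie between -0.11 and 0.32 on the left and between -0.25 and 0.12 on the right.

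The H gene took a larger share of V1 mRNA after I/R. Summed over the other 7 genes, V1 mRNA was 117 ± 7.97 CPM in Sham, 131 ± 3.85 after I/R and 118 ± 4.22 with ML264 (SD, n = 4). Atp6v1h was 12.03 ± 1.28% of the CPM of all 8 genes in Sham, 19.7 ± 0.679% after I/R and 14.8 ± 0.980% with ML264. The ranges of the 3 groups did not touch, at 10.4 to 13.4%, 19.2 to 20.6% and 13.5 to 15.7%. Since Atp6v1h was picked for its change, this share is a description too.

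**Figure D3:**
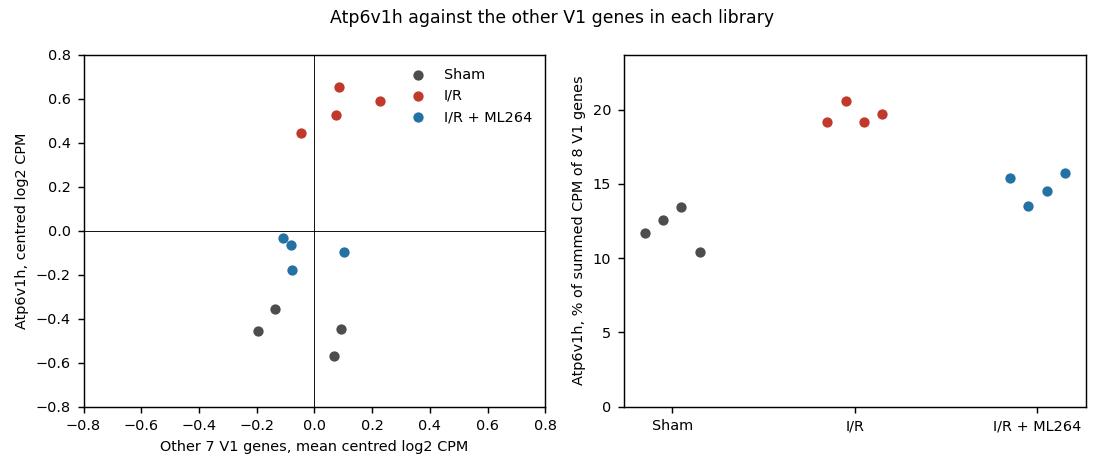
The left panel plots the log2 CPM of Atp6v1h, centred on its mean over 12 libraries, against the mean of the centred values of the other 7 V1 genes, with a point per library. The right panel plots Atp6v1h as a percentage of the summed CPM of the 8 genes, at 10.4 to 13.4% in Sham, 19.2 to 20.6% after I/R and 13.5 to 15.7% with ML264.

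Levels of different genes were compared per length, as CPM per kb of the longest annotated protein-coding transcript. In Sham the order was Atp6v1g1 (11.5 ± 1.20), Atp6v1e1 (10.2 ± 1.24), Atp6v1d (8.63 ± 1.58), Atp6v1h (7.74 ± 0.474), Atp6v1b2 (7.52 ± 0.711), Atp6v1c1 (6.32 ± 0.340), Atp6v1a (5.45 ± 0.689) and Atp6v1f (1.38 ± 0.549 CPM per kb, SD, n = 4). Neighbours in this order overlapped between libraries, except Atp6v1b2 with Atp6v1c1 and Atp6v1a with Atp6v1f. In I/R Atp6v1h had the highest mean of the 8, at 15.6 ± 0.959 CPM per kb, with a range of 14.5 to 16.7 that overlapped that of Atp6v1g1 at 12.7 to 16.2. The order depends on the length used: with the median length of the protein-coding transcripts, Atp6v1a would stand at 25.8 CPM per kb in Sham and lead the list.

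Other isoforms of V1 subunits, which are known from kidney, brain or testis, were low. Atp6v1e2 was listed at 0 in all libraries, and Atp6v1b1 and Atp6v1c2 had at most 9 and 4 counts per library. These 3 were too low to be tested. Atp6v1g2 was at 1.36 to 1.66 CPM in Sham and 1.13 to 2.73 in I/R (log2 difference 0.23 ± 0.28, edgeR adjusted p = 0.678). Atp6v1g3 had 3 to 18 counts per library. It was at 0.104 to 0.507 CPM in Sham and 0.513 to 0.674 in I/R, and its log2 difference of 1.27 ± 0.49 had an adjusted p of 0.124.

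Among V0 genes, which encode the membrane part of the pump, none was called higher after I/R by edgeR. In I/R against Sham 1 of 11 was called (7.75% of all genes), and it was lower. This was Atp6v0a1, whose product anchors V0 to the stalks of V1. It was at 47.73, 53.35, 51.65 and 51.47 CPM in Sham, at 42.66, 43.21, 43.04 and 38.52 after I/R and at 52.61, 43.65, 43.54 and 45.55 with ML264. Every I/R library was below every Sham library, and the log2 difference was -0.29 ± 0.08 (edgeR adjusted p = 0.0369). The call was lost without any 1 of the I/R libraries or of Sham libraries 2, 3 and 4 (adjusted p up to 0.107). It was also lost with Ddx3y as a covariate, within the libraries with high Ddx3y, with the replicate block and with no filter on low counts (adjusted p up to 0.151).

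Atp6v0a2, another a subunit gene, had a similar log2 difference of -0.30 ± 0.10 with an adjusted p of 0.0684 in edgeR, and DESeq2 called it lower. Its mean was 32.0 CPM in Sham, 25.9 in I/R and 28.6 with ML264, and every I/R library was below every Sham library. The genes of the proton-carrying ring were not called: Atp6v0c had a log2 difference of 0.26 ± 0.14 (adjusted p = 0.287) and Atp6v0b of -0.14 ± 0.21 (adjusted p = 0.735). For Atp6v0d1, the subunit on which the central stalk stands, it was 0.24 ± 0.13 (adjusted p = 0.282). Atp6v0e2 was at 1.23 to 5.57 CPM in Sham and 1.497 to 2.01 in I/R (log2 difference -0.96 ± 0.43, adjusted p = 0.196).

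The other V0 genes with a fitted value, Tcirg1, Atp6v0e, Atp6v0d2, Atp6v0a4 and Rnasek, were not called either. Their log2 differences in I/R against Sham were -0.16 ± 0.19, 0.10 ± 0.14, 0.38 ± 0.59, -1.70 ± 0.83 and 0.16 ± 0.15. Atp6v0a4 had 0 to 14 counts per library and Atp6v0d2 had 2 to 16, and 64.5% of the 31-base words of Rnasek also occur in Gm21988, so these 3 are uncertain. In ML264 against I/R and against Sham, edgeR, DESeq2 and voom each called 0 of 11 V0 genes. Of all genes, edgeR called 0.0502% and 0.288% there. In edgeR 0 of the 11 had an unadjusted p under 0.05, beside 10.4% and 13% of all genes.

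Of the 2 accessory genes, Atp6ap2 was called higher in I/R. Its product, the prorenin receptor, binds the pump and helps its assembly. It was at 2.398, 2.644, 3.682 and 2.678 CPM in Sham, at 4.468, 4.167, 4.103 and 5.466 after I/R and at 3.37, 3.809, 4.167 and 3.748 with ML264. All I/R libraries were above all Sham libraries, and the ML264 libraries overlapped both. The log2 difference in I/R against Sham was 0.67 ± 0.18 (edgeR adjusted p = 0.0281). The call was lost without I/R library 1 or 4 or Sham library 1, 2 or 4 (adjusted p up to 0.09), and in both fits that take Ddx3y into account (adjusted p up to 0.218). The difference of Atp6ap2 with ML264 against I/R was -0.27 ± 0.17 (adjusted p = 0.616). Atp6ap1, the more abundant accessory gene at 46.6 CPM in Sham and 44.6 in I/R, was not called (-0.06 ± 0.09, adjusted p = 0.746).

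In 6 other gene lists around the pump, edgeR called 7 of 80 genes in I/R against Sham, beside 7.75% of all genes, so the share of calls was near that of all genes. Among 11 genes for assembly and regulation (RAVE complex and others), 4 MiT/TFE factors (the TFEB family) and 12 endolysosomal ion transport genes, edgeR called 0, with median log2 differences of -0.07, -0.05 and -0.06. At an unadjusted p under 0.05 in edgeR there were 2, 0 and 3, beside 23.2% of all genes. DESeq2 called 1, the assembly and regulation gene Tbc1d24, named here after its value was seen. Of 10 Ragulator and Rag GTPase genes, which tie the pump to mTORC1, 1 was called lower: Slc38a9, the lysosomal arginine sensor, at 13.4 CPM in Sham and 8.59 in I/R (log2 difference -0.64 ± 0.14, adjusted p = 0.0115). Slc38a9 kept its call in each alternative fit and without any single library.

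Of 38 lysosomal hydrolase and membrane protein genes, 1 was called higher and 4 lower, and the list's median was -0.11. The acid ceramidase gene Asah1 fell by 0.45 ± 0.10 on the log2 scale (edgeR adjusted p = 0.0131), from 17.4 to 12.7 CPM, and kept its call in each alternative and without any single library. Manba, which encodes an enzyme that breaks down sugar chains, was called lower at -0.35 ± 0.10 (adjusted p = 0.0321). Lamp2, a lysosomal membrane protein gene, was called higher at 0.21 ± 0.06 (adjusted p = 0.0494). Lamp2 is outside the rule for named genes and was added after its value was seen. Manba lost its call without I/R library 2, 3 or 4 or any Sham library (adjusted p up to 0.0899). The Lamp2 call held without ML264 library 3 but was lost without any other single library (up to 0.143) and in 10 of 12 alternative fits (up to 0.172). Manba also lost its call with the replicate block, in both fits that take Ddx3y into account and with no filter on low counts (up to 0.0664).

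Of 5 AP-2 adaptor genes, which the H subunit is known to contact through the adaptor's medium chain, 1 was called higher in I/R: that chain's gene, Ap2m1, at 23.3 CPM in Sham and 28.8 in I/R (log2 difference 0.31 ± 0.09, adjusted p = 0.0414). Ap2m1 shares 32.4% of its words with other genes, mainly Gm13509, and is uncertain. Its call was lost without I/R library 1, 3 or 4, ML264 library 1 or 4, or any Sham library (adjusted p up to 0.119), and in 6 of 12 alternative fits (up to 0.245), among them both that take Ddx3y into account. No gene of these lists, from assembly and regulation to AP-2, was called by edgeR in ML264 against I/R or against Sham. Of all genes, 0.0502% and 0.288% were called there. Of the 80, 10 and 5 had an unadjusted p under 0.05, beside 10.4% and 13% of all genes. DESeq2 called 0 and 1 of them (Asah1, lower in ML264 against Sham), and voom called 0 in both.

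In bulk tissue, a change in the number of cells of a type and a change in mRNA per cell cannot be told apart. Macrophages and neutrophils are rich in lysosomes, so their markers are given beside these results. The summed level of 8 macrophage genes was 97.56 to 167.5 CPM in Sham, 93.31 to 118.1 after I/R and 92.23 to 119.4 with ML264. Of these 8, 1 was called in I/R against Sham (7.75% of all genes). This was Adgre1, which was lower after I/R (-0.68 ± 0.16, edgeR adjusted p = 0.0174). The 6 neutrophil genes summed to 4.756 to 7.26, 8.056 to 19.58 and 4.753 to 20.02 CPM, and 1 of the 6, S100a8, was at 0 in every Sham library. In I/R against Sham edgeR called 0 of the 4 that could be tested. Of the 4, 2 had an unadjusted p under 0.05 in edgeR (23.2% of all genes), and DESeq2 called those 2 higher (Mmp8 and Retnlg). Neutrophil levels overlapped between I/R and ML264.

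Markers of other heart cells also had calls in I/R against Sham, beside 7.75% of all genes. These were 1 of 6 endothelial, 1 of 6 smooth muscle and pericyte and 1 of 8 cardiomyocyte genes. Of 6 fibroblast and 3 tested nerve genes, edgeR and DESeq2 called 0. At an unadjusted p under 0.05 in edgeR there were 1 and 0, beside 23.2% of all genes. By the same measure there were 4 of 6 endothelial, 1 of 6 smooth muscle and pericyte and 2 of 8 cardiomyocyte genes. The endothelial share was thus above that of all genes. No change of a cell type is read from these counts. Endothelial markers summed to 398 to 494 CPM in Sham and 336 to 391 in I/R. Most of that difference was Kdr, a receptor for vascular endothelial growth factor, with means of 155.5 and 90.3 CPM (-0.78 ± 0.19, adjusted p = 0.0323). Pecam1 (0.05 ± 0.09) and Cdh5 (0.04 ± 0.08) of the same list had differences near 0. Tie1, Egfl7 and Emcn had values of -0.38, -0.67 and -0.39 without a call (unadjusted edgeR p 0.0109, 0.0175 and 0.0104). The pericyte gene Pdgfrb was lower (-0.44 ± 0.09, adjusted p = 0.00631), and its list summed to 1095 to 1293 CPM in Sham and 1044 to 1229 after I/R. Tnnt2, which encodes cardiac troponin T, was higher (0.35 ± 0.10, adjusted p = 0.0394). Within the libraries with high Ddx3y, the calls of Adgre1, Kdr, Pdgfrb and Tnnt2 were all lost (adjusted p 0.0534 to 0.162). Adgre1 also lost its call without I/R library 4 or Sham library 3 or 4 (up to 0.0564), Kdr without I/R library 1, 3 or 4 or Sham library 2, 3 or 4 (up to 0.0905), and Tnnt2 without any I/R library or Sham library 1, 3 or 4 (up to 0.118). The part of cell numbers in the V1 values was not tested.

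The 8 genes whose profile over the 12 libraries was most like that of Atp6v1h were H3f3b, Pqlc1, Smad1, Zfp655, Icosl, F2r, Ilf2 and Tra2b. Likeness was the mean absolute difference of centred log2 CPM over 12 libraries, among 6292 genes with a mean log2 CPM of at least 3. It was 0.10 for H3f3b, a gene for the replacement histone H3.3, and 0.15 for Tra2b, a splicing factor gene. H3f3b was at 20.79 to 25.82 CPM in Sham, 38.41 to 60.16 after I/R and 31.29 to 33.69 with ML264. Pqlc1 followed with a distance of 0.13 and means of 13.5, 27.1 and 19.4 CPM in the same order of groups. Smad1, a signal carrier of bone morphogenetic proteins, had means of 10.7, 20.8 and 14.1 CPM. F2r, which encodes a thrombin receptor, had means of 24.7, 42.2 and 31.1 CPM. These genes were chosen for their profile, so their order of groups is no test.

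The other V1 genes stood further from Atp6v1h than the genes just named, which were picked as the nearest. Over all 15951 other genes the median distance was 0.43. All of these V1 genes but Atp6v1f lay below that median, Atp6v1c1 only just. Atp6v1d, at 0.30, was the nearest V1 gene, at rank 1111, followed by Atp6v1g1 at rank 1219 and Atp6v1e1 at rank 1404. Atp6v1b2 and Atp6v1a were at ranks 2309 and 3516, Atp6v1c1 at 7907 and Atp6v1f at 12621. The means of Atp6v1d, Atp6v1g1 and Atp6v1e1 had the same order as those of Atp6v1h, with Sham lowest and I/R highest.

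Rgs20, a gene for a regulator of G-protein signalling, lies on the opposite strand and overlaps the first 268 bases of Atp6v1h (chr1:4909576-5070285). The library kit does not mark strand, so reads in the overlap cannot be told apart by strand. Rgs20 was at 1.9, 3.513, 2.883 and 2.255 CPM in Sham, at 3.808, 5.032, 3.54 and 5.915 after I/R and at 2.767, 3.938, 2.609 and 2.558 with ML264. All I/R libraries were above all Sham libraries, with a log2 difference of 0.79 ± 0.23 (edgeR adjusted p = 0.0447), and with ML264 against I/R it was -0.62 ± 0.23 (adjusted p = 0.346). The Rgs20 call was lost without I/R library 2 or 4, ML264 library 1 or 4, or Sham library 1, 3 or 4 (adjusted p up to 0.144). It was also lost in both fits that take Ddx3y into account, without the robust spread and with upper-quartile factors (up to 0.174). Shared with Atp6v1h were 2.34% of the 31-base words of Rgs20, which are 1.01% of those of Atp6v1h, and the Rgs20 means in I/R and Sham were 4.57 and 2.64 CPM against 32.0 and 15.9 for Atp6v1h.

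Further along the chromosome, Tcea1 differed by 0.22 ± 0.10 in I/R against Sham (edgeR adjusted p = 0.176) and by -0.28 ± 0.10 in ML264 against I/R (adjusted p = 0.308), and 30% of its words are shared. Oprk1, the kappa opioid receptor gene, was called higher in I/R (1.19 ± 0.26, adjusted p = 0.0116), a call kept without any single library, and in I/R + ML264 (1.31 ± 0.26, adjusted p = 0.0425) against Sham. The second call was lost without I/R library 2 or 4, ML264 library 3 or 4, or Sham library 2, 3 or 4 (up to 0.145), and with voom, only those 2 groups or the replicate block (up to 0.0789). With ML264 against I/R Oprk1 differed by 0.12 ± 0.25 (adjusted p = 0.902). Npbwr1, Rb1cc1 and Gm37988 were not called, and Gm37988 shares 93.6% of its words with other genes.

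The table also splits each gene into transcripts, but these values could not be read by transcript. The label that held most of a gene's counts changed from library to library, within groups as well as between them. The protein-coding transcript label of Atp6v1d held 711 of 734 estimated counts in Sham library 1 but 1.52 of 799 in Sham library 2 and 3 of 1106 in Sham library 4. In I/R it held 1066, 1.39, 0 and 21.1 counts in the 4 libraries. Whichever label led, it held 96.1 to 98.9% of the counts of Atp6v1d, so the split had a stable shape with changing names.

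Atp6v1h had the same feature. Over its 8 transcripts, 5 different labels led in at least 1 library, and the leading label held 47.5 to 58.7% of the gene's counts. Taken by rank and not by label, the leading value of Atp6v1h was 8.65 ± 0.220 CPM in Sham, 17.4 ± 1.58 after I/R and 10.8 ± 1.20 with ML264 (SD, n = 4). The second value was 2.42 ± 0.349, 4.92 ± 1.35 and 3.44 ± 0.485 CPM. Atp6v1a had 6 leading labels of 6 transcripts, Atp6v1b2 and Atp6v1e1 each 5 of 6, and Atp6v1f 3 of 3. Atp6v1c1 and Atp6v1g1 have 1 transcript each and are not touched.

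The whole table behaved like these members. Of 4697 genes with several transcripts and at least 200 counts in every library, 3 had the same leading label in all 12 libraries. Pairs of libraries shared the leading label in 20.65% of cases, and 20.64% would be shared if leaders were spread evenly over each gene's transcripts. Among replicate pairs the share was 20.7%. With labels in this state, edgeR called 0 of 52965 transcripts in each comparison (3160, 3112 and 3050 at an unadjusted p under 0.05) and DESeq2 called 1265, 1114 and 1107. Of the 23 tested transcripts of the other 7 V1 genes, edgeR called 0. Tests of transcript use gave 0 calls of 48151 in each comparison (2558, 2649 and 2542 at an unadjusted p under 0.05). None of these counts is read as a statement on isoforms. Gene sums, on which the results above rest, do not depend on which label of the gene holds a value.

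**Figure D4:**
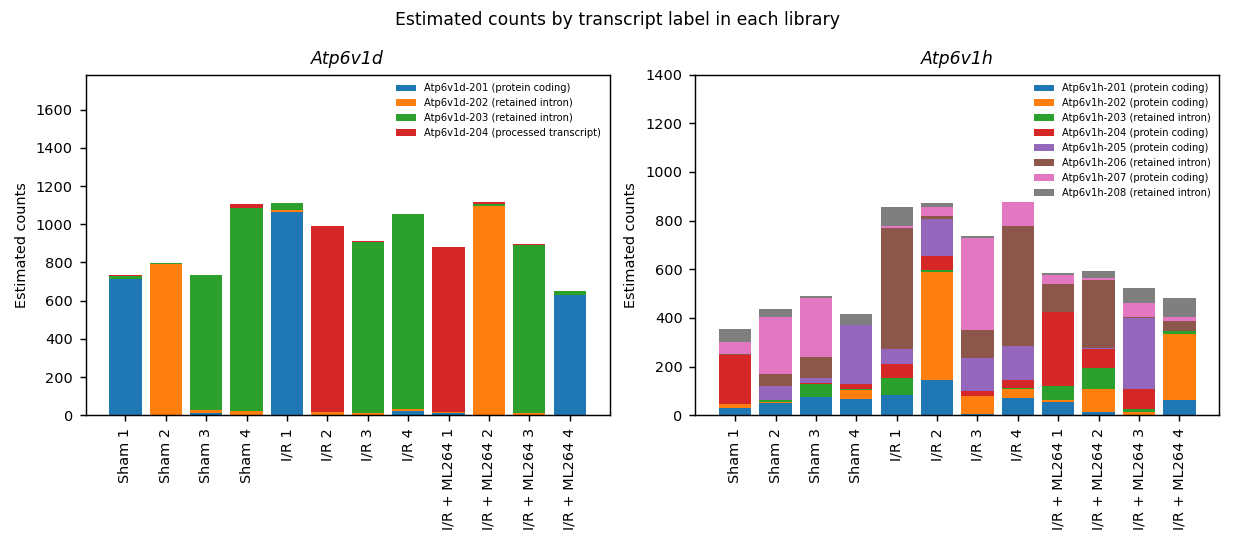
Stacked bars show the estimated counts of each transcript label (colours) of Atp6v1d and Atp6v1h in the 12 libraries (horizontal axis). In Atp6v1d a single label held 96.1 to 98.9% of the counts in every library, but all 4 labels took that place in some library.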

How the data were processed

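Frozen mouse heart RNA was sequenced in 12 libraries, made with the Nextera XT kit and read as paired ends, per the labels' protocols. The authors deposited estimated counts by transcript, unnormalized, in 1 table with a column per library. The submitters' processing notes name FastQC, kallisto and the GRCm38 (mm10) build, with no versions. The annotation release used for these counts is not given in the sources used here. Of the values, 45.82% were not whole numbers. Kallisto divides reads between transcripts that share sequence, so the percentage of each gene's 31-base words found in transcripts of other genes was computed from GENCODE M21, which held all 35 V1 transcripts by accession.

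Estimated counts were summed per gene symbol and rounded. Genes were kept with filterByExpr (minimum count 10), leaving 15952, and all 8 V1 genes passed. All 3 comparisons came from a single fit of the 12 libraries (edgeR 4.0.16, R 4.3.3, TMM scaling, robust quasi-likelihood F-test), with Benjamini-Hochberg adjustment over all genes. Intervals are the estimate ± 1.96 SE. Scripts were tested on simulated data in which 200 features changed 2-fold. The gene fit recovered 81 to 87% of them and the transcript fit 59 to 66%. The test of transcript use recovered only 9.5%, so its lack of calls says little. False calls numbered 3 to 12 per run. No pair of replicates agreed within sampling noise: the chi-square per gene was 6.27 or more in all 18 pairs. Alternatives used DESeq2 1.42.0, limma 3.58.1 (voom), RLE and upper-quartile factors, other filters, a non-robust spread, 2 groups only, mitochondrially encoded genes left out, protein-coding transcripts only, Ddx3y as a covariate, only libraries with Ddx3y above 10 CPM, the replicate number as a block, and each library left out.

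The members and gene lists were chosen with earlier results of these data known. Named are all members, their paralogues, V0 and accessory genes that passed the filter, up to 3 called genes per other list and comparison, the 8 genes most like Atp6v1h (predicted genes and pseudogenes left out), and the 3 nearest fitted genes on each side of it. Values of some genes that the rule names are not reported here. Named transcripts were planned but left out, because transcript labels were not stable between libraries.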

Additional observations from a re-analysis of the deposited data

Results flagged for a closer look

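Atp6v1b2 in the I/R + ML264 group had 1 library that stood apart. Library 3 was at 16.9 CPM, and the other 3 were at 21.08 to 21.7 CPM, so the gap took up 0.871 of the range of the group. Of 24 combinations of V1 gene and group examined this was the only one to stand out. Chance is taken to flag about 1 group in 20, a nominal rate that was not computed from these data. A single flag among 24 is thus about what chance gives. The gene was not called in any comparison.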

How the results depend on the processing

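Of the 7 tested V1 genes, 0 were called under each alternative in all 3 comparisons, except that leaving out single libraries gave 0 to 1 in I/R against Sham (Atp6v1d without Sham library 4). Over all 525 alternative values of these genes, 37 changed sign, none of them called, and the largest main log2 difference among those was 0.22. That value belongs to Atp6v1e1 in I/R against Sham, which stayed at 0.16 to 0.30 with a library left out. Atp6v1h was selected for its change in these same libraries, so its values here are a description and no test. It had no sign change in 75 alternative values. Its log2 difference was 0.97 to 1.02 (I/R against Sham), -0.65 to -0.62 (ML264 against I/R) and 0.34 to 0.39 (ML264 against Sham) in 12 alternatives each, and 0.97 to 1.05, -0.69 to -0.62 and 0.33 to 0.40 with a library left out. Summing only protein-coding transcripts gave 0.59, -0.55 and 0.04. That setting drops values by label, and labels were not stable, so it is not read. It is nevertheless among the 525 and the 75 values counted above, so the 37 sign changes may include some that come from labels.

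The number of genes called moved more. In I/R against Sham it was 546 with Ddx3y as a covariate, 553 within the libraries with Ddx3y above 10 CPM, and 659 to 1485 with a library left out, against 1236. In ML264 against I/R, with 8 genes called, it was 150 with DESeq2, 22 with no filter, 2 within libraries of high Ddx3y, 2 without the robust spread, and 0 to 85 with a library left out (0 without ML264 library 1 and 85 without ML264 library 2). In ML264 against Sham, with 46 called, it was 363 with DESeq2, 12 with Ddx3y as a covariate, 27 with voom, within libraries of high Ddx3y and with only the 2 groups, 78 with no filter, 72 without the robust spread, and 9 to 101 with a library left out. DESeq2 called 1265, 1114 and 1107 transcripts in the 3 comparisons, against 0. The cause of these moves was not tested.

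Replicate numbers paired the libraries weakly at most. Same-numbered libraries correlated by -0.11 to 0.10 in their deviations from group means, and 3 of 12 correlated best with their own number. With 4 libraries in each group, 3 of 12 is also what random matching would give. All 3 were in ML264 against I/R (numbers 1, 3 and 4, with correlations of 0.0971, 0.0598 and 0.0631). With the replicate block, 1 gene was called in ML264 against I/R and 19 in ML264 against Sham, and the V1 count stayed at 0. Atp6v1f had the fewest counts of the V1 genes, 16 to 48 per library, and the largest SD within groups (0.59 on the log2 scale). Of 1832 genes of similar level, 73.85% had a smaller SD, and the cause of this scatter was not tested.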
